A study of Mus musculus with 6 samples.

Results

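The genes described here are 10 genes of the MHC class I antigen presentation pathway, measured on arrays of mouse regulatory T cells (Tregs) that lacked or retained HDAC11. The members are the classical class I heavy chain genes H2-K1 and H2-D1, the nonclassical heavy chain genes H2-T23 and H2-M3, the light chain gene B2m, the peptide transporter genes Tap1 and Tap2, the tapasin gene Tapbp, and the immunoproteasome genes Psmb8 and Psmb9. They were chosen by symbol, as every probe set (a group of short probes on the array that reports 1 transcript) whose annotated symbols include a member. This gave 30 probe sets of 22626 and 10 genes of 12393. Of the 30 probe sets, 5 carried several gene symbols and were kept because the other symbols were those of class I genes, a class I pseudogene or a predicted gene. HDAC11 is a histone and protein deacetylase, and the arrays compared Tregs with and without it. The HDAC11-/- group held CD4+CD25+ Tregs of fl-HDAC11/Foxp3cre mice, in which the floxed gene is removed by a Cre recombinase expressed from Foxp3, and the WT group held the same fraction of C57BL6 wild type mice. Each group had 3 arrays of independent samples taken by magnetic separation. The labels give the WT mice no Cre, so the deletion and the presence of Cre cannot be told apart. The methods state male mice of 6 to 8 weeks unless specified otherwise, on strains backcrossed at least 8 times to C57BL/6. Neither labels nor methods say whether each array is 1 mouse, so the p-values cover the variation among these 6 samples alone, part of which may be technical.

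In the class I pathway, the proteasome cuts cytosolic proteins into peptides, the TAP transporter carries the peptides into the endoplasmic reticulum, and a loading complex of tapasin, calreticulin and ERp57 fits them into the groove of a heavy chain paired with beta-2 microglobulin. The loaded complex goes to the cell surface, where CD8+ T cells and NK cells read it. Nearly all nucleated cells, T cells among them, carry class I molecules, and interferons raise most genes of the pathway through IRF and NLRC5 factors. The immunoproteasome is a form of the proteasome in which inducible catalytic subunits replace the constitutive ones.

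The upstream sequences of the members for which a difference was found are printed here, because class I heavy chain genes are known for a shared block of promoter elements and because Tap1 and Psmb9 are divergent neighbours. The sequences are those of RefSeq on build GRCm38.p6, which held an entry for 9 of the 10 members. They are shown 5′ to 3′ on the strand of the gene, as the 200 bases before the annotated start of H2-K1 (chr17:34000334-34000533, minus strand), H2-D1 (chr17:35262894-35263093, plus strand) and H2-M3 (chr17:37270034-37270233, plus strand), and as the 225 bases between the starts of Psmb9 and Tap1 (chr17:34187331-34187555, plus strand, reading towards Tap1). Capitals mark exact matches, on either strand, to GGATTCC (the core of a kappaB element), TTTCACTT (the core of an interferon-stimulated response element), TGACG (the core of a CRE-like element) and CCAAT (bound by NF-Y, here also as ATTGG). No match overlapped another. H2-K1 has 2 annotated starts, and the one nearer the gene body was used. As printed, the interval of Tap1 and Psmb9 begins beside the start of Psmb9 and ends beside the start of Tap1.
H2-K1: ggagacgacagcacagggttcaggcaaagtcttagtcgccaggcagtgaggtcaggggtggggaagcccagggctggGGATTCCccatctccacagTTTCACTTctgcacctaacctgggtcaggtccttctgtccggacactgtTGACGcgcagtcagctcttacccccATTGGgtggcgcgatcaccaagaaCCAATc
H2-D1: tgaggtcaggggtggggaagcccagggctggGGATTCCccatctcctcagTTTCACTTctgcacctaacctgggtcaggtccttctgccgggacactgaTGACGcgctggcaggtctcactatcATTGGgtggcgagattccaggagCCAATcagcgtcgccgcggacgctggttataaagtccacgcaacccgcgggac
H2-M3: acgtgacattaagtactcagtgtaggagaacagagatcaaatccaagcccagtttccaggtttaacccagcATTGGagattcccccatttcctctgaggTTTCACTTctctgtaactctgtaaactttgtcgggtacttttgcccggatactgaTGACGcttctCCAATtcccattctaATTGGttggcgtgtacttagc
Tap1 to Psmb9 interval: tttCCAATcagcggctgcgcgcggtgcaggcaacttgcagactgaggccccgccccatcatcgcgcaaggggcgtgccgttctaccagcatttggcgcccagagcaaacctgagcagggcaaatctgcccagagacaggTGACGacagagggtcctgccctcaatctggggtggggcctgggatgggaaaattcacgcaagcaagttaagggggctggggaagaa

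H2-K1 and H2-D1 each held all 4 motifs in the same order and with the same spacing. The first bases of GGATTCC and TTTCACTT were 19 bases apart, those of TTTCACTT and TGACG 49 bases apart, and those of TGACG and the next CCAAT box 25 bases apart in both genes. Within the printed windows, the longest run of bases that both genes shared was 46 bases. It begins at the first base of the H2-D1 window, so the shared run may be longer than the window shows. H2-M3, a nonclassical gene, held TTTCACTT and TGACG 55 bases apart, with a CCAAT box 10 bases after TGACG, and no GGATTCC. In the 200 bases before all 32851 annotated starts, GGATTCC was present in 2.44%, TTTCACTT in 1.03%, TGACG in 15.7% and CCAAT in 29.3%. The interval between Tap1 and Psmb9 held 1 TGACG and 1 CCAAT, motifs found in 16.8% and 31.6% of windows of that length, with GGATTCC in 2.85% and TTTCACTT in 1.24%. Among the other members, B2m had TGACG and CCAAT, Tapbp and H2-T23 had CCAAT alone, and Psmb8 had none of the 4 in its 200 bases. A match describes letters only, and no binding was measured.

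All values are log2 expression values after robust multiarray averaging (RMA), as deposited, so 1 unit is a doubling, and log2 fold changes are HDAC11-/- minus WT. Array medians lay between 6.74 and 6.77, and the median SD between arrays of a genotype was 0.07 in HDAC11-/- and 0.09 in WT. The Treg factor Foxp3 could not be read from these arrays, since its probe set was no brighter than the bacterial controls in either genotype. These are probe sets for transcripts absent from mouse cells, whose highest value on an array was 5.06 to 5.48, and a probe set at or below it is said to lie in the bacterial control range. Il2ra, which encodes the CD25 used for the separation, was at 10.94, 10.99 and 10.89 in HDAC11-/- and at 10.85, 10.97 and 11.02 in WT. The array cannot check the deletion, because the sources used here do not place the Hdac11 probes relative to the deleted part. As the arrays measured bulk samples, fewer cells of a type and less RNA per cell cannot be told apart.

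The members differed little between HDAC11-/- and WT Tregs, and none of the 10 genes reached 1.5-fold. Each gene is represented by its brightest probe set over the 6 arrays, tested with limma and adjusted by Benjamini-Hochberg over all 22626 probe sets. A gene was called where the adjusted p was under 0.05 and the fold reached 1.5 (0.585 on the log2 scale). Of the 10 members, 0 were called higher and 0 were called lower, beside 3.46% of all genes called higher and 3.72% called lower. By the adjusted p alone, 0 members were higher and 3 were lower (Tap1, H2-K1 and H2-M3), beside 22.9% of all genes higher and 23.2% lower. The share of members lower by the limma adjusted p is near that of all genes. At an unadjusted p under 0.05 there were 0 higher and 5 lower, and SAM, the test named in the methods, passed Tap1 alone. No share of all genes is given for the unadjusted p or for SAM, so nothing is read from these counts. The members' log2 fold changes ran between -0.40 and 0.04, with a median of -0.10 beside -0.04 over all genes, and 8 of 10 were below 0. Over all members, the 95% confidence intervals ended at -0.51 (1.43-fold lower, Tap1) and at 0.14 (1.10-fold higher, B2m). All 3 HDAC11-/- arrays lay below all 3 WT arrays for 6 members and above them for 1, beside 29.6% and 28.2% of all genes, and the groups overlapped for the other 3.

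Some members are so abundant that their probes may be close to the top of the array's range, where differences can be compressed. 7 of the 230 probe sets with a mean of at least 13 belonged to members. The array maxima were 14.73 to 14.75 in HDAC11-/- and 14.67 to 14.68 in WT. In those 230 probe sets, log2 fold changes ran between -1.19 and 0.75. Counting both directions together, 2 were called (0.87%), beside 3.87% of all probe sets called higher and 5.03% called lower. Again in both directions together, 63 passed the adjusted p (27.4%), beside 23.2% of all probe sets higher and 22.4% lower. The higher and lower shares are to be added for this comparison, so the 230 passed less often than all probe sets by both measures. Saturation itself was not tested.

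**Figure D1:**
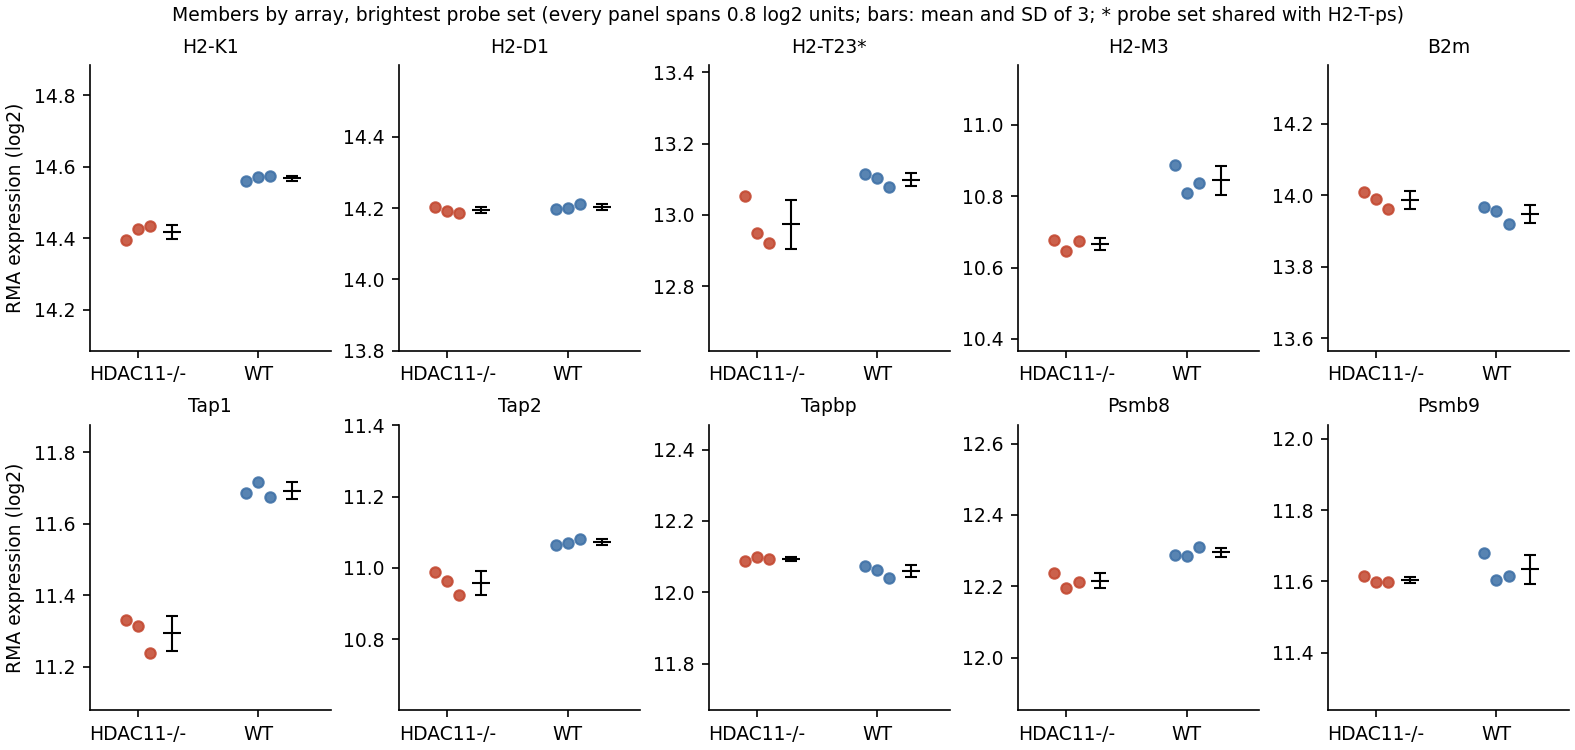
Log2 RMA expression of the 10 members by their brightest probe set, with a point for each of 3 HDAC11-/- (left) and 3 WT (right) arrays and bars for mean and SD; every panel spans 0.8 log2 units. The gap is widest for Tap1, whose HDAC11-/- arrays lie between 11.24 and 11.33 and WT arrays between 11.67 and 11.72, while H2-D1, B2m and Psmb9 overlap.

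The classical heavy chains, which present peptides to CD8+ T cells, showed a small difference for H2-K1 and none past the test for the brightest H2-D1 probe set. H2-K1 was at 14.40, 14.42 and 14.43 in HDAC11-/- and at 14.56, 14.57 and 14.57 in WT. Every HDAC11-/- array lay below every WT array, and the log2 fold change was -0.15 (95% confidence interval -0.25 to -0.05, adjusted p = 0.0243). The difference amounted to 1.11-fold, and it missed the threshold when WT replicate 2 or 3 or any of the 3 HDAC11-/- arrays was left out (adjusted p 0.0512 to 0.0805). H2-D1 was at 14.20, 14.19 and 14.19 in HDAC11-/- and at 14.20, 14.20 and 14.21 in WT. These arrays overlapped, and the log2 fold change was -0.01 (-0.11 to 0.09, adjusted p = 0.867).

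The probe sets of these heavy chain genes disagreed among themselves. The H2-D1 probe set 1426324_at was at 11.20, 11.18 and 11.16 in HDAC11-/- and at 11.72, 11.78 and 11.79 in WT. The groups did not overlap, and the log2 fold change was -0.58 (-0.69 to -0.48, adjusted p = 0.000161), the largest of the 30 probe sets. At 1.498-fold it fell just short of a call, and leaving out WT replicate 1 (-0.60) or HDAC11-/- replicate 1 (-0.59) made it a call. A dimmer H2-D1 probe set, 1450170_x_at, was at 7.83, 7.73 and 7.89 in HDAC11-/- and at 7.98, 8.04 and 8.05 in WT, with a log2 fold change of -0.21 (adjusted p = 0.0246). Another, 1451683_x_at, pointed the other way without passing the test, at 11.96, 11.86 and 11.93 in HDAC11-/- and at 11.81, 11.87 and 11.70 in WT (log2 fold change 0.12, adjusted p = 0.144). The second brightest H2-D1 probe set, 1451784_x_at, had a log2 fold change of -0.02 (adjusted p = 0.717).

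H2-D1 had 11 probe sets in all and H2-K1 had 6, and 1 probe set, 1424948_x_at, is annotated to both. Class I genes are highly alike in sequence and differ between mouse strains. The suffix _x in a probe set's name marks probes that also match other transcripts, and 8 of the 11 H2-D1 and 5 of the 6 H2-K1 probe sets carry it, so the signal of a single heavy chain gene is uncertain here. Which transcripts each probe set reads in C57BL/6 cells was not tested. Beyond the brightest, the H2-K1 probe sets 1451931_x_at, 1427746_x_at and 1450534_x_at had log2 fold changes of -0.01, -0.13 and 0.0021 (adjusted p 0.873, 0.0540 and 0.980). The probe set shared by H2-K1 and H2-D1 had -0.15 (adjusted p = 0.0871). The dim probe set shared by H2-Q5 and H2-K1, 1451593_at, had -0.24 (adjusted p = 0.129). None of these 5 passed the test.

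Of the remaining H2-D1 probe sets, 1452544_x_at and 1427651_x_at were dim and had log2 fold changes of -0.02 and -0.14 (adjusted p 0.856 and 0.204). The probe set 1422348_at, annotated to Gm38417, H2-Q2 and H2-D1, was at 5.24, 5.09 and 5.20 in HDAC11-/- and at 4.66, 5.10 and 4.75 in WT, where it was in the bacterial control range, with an adjusted p of 0.0523. The probe sets 1425614_x_at and 1451934_at lay within that range in both genotypes, as did 2 of the 4 Tap1 probe sets, so no fold is read from these 4.

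For both nonclassical heavy chains, H2-T23 and H2-M3, every HDAC11-/- array lay below every WT array, and of the pair H2-M3 passed the adjusted p. H2-M3 presents formylated peptides of bacteria and mitochondria to T cells. It was at 10.68, 10.65 and 10.68 in HDAC11-/- and at 10.89, 10.81 and 10.84 in WT. The groups were separate, with a log2 fold change of -0.18 (-0.28 to -0.07, adjusted p = 0.0172), a 1.13-fold difference that missed the threshold without HDAC11-/- replicate 2 (0.0665) or 3 (0.0510). H2-T23 encodes Qa-1, a ligand of the NKG2A receptor of NK and CD8+ T cells, and its probe sets are also annotated to the pseudogene H2-T-ps. It was at 13.05, 12.95 and 12.92 in HDAC11-/- and at 13.12, 13.10 and 13.08 in WT. The log2 fold change was -0.12 (-0.25 to -0.0017, adjusted p = 0.0898), and the dimmer probe set 1419658_at had -0.02 (adjusted p = 0.803).

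Beta-2 microglobulin, the light chain that pairs with class I heavy chains, did not differ beyond the test. B2m was at 14.01, 13.99 and 13.96 in HDAC11-/- and at 13.97, 13.96 and 13.92 in WT. The arrays overlapped and the log2 fold change was 0.04 (-0.06 to 0.14, adjusted p = 0.495). Its second probe set, 1452428_a_at, lay on the other side of 0 at -0.07 (adjusted p = 0.252), and the interval of the brighter one reaches no further than 1.10-fold higher.

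Tap1, which encodes one chain of the peptide transporter, had the largest difference among the 10 members. It was at 11.33, 11.31 and 11.24 in HDAC11-/- and at 11.69, 11.72 and 11.67 in WT. All HDAC11-/- arrays lay well below all WT arrays, and the log2 fold change was -0.40 (-0.51 to -0.29, adjusted p = 0.000824), or 1.32-fold lower. It stayed past the adjusted p without each array in turn (log2 fold change -0.42 to -0.37, adjusted p 0.00314 to 0.00538). A dimmer Tap1 probe set, 1448177_at, was at 6.21, 6.16 and 6.23 in HDAC11-/- and at 6.07, 6.37 and 6.32 in WT, where the spread was wider (log2 fold change -0.06, adjusted p = 0.612).

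The other parts of the transport and loading step differed less. Tap2, the partner chain of Tap1, was at 10.99, 10.96 and 10.92 in HDAC11-/- and at 11.06, 11.07 and 11.08 in WT. The groups were separate by a small margin, and the log2 fold change was -0.11 (-0.22 to -0.01, adjusted p = 0.0701). Tapbp encodes tapasin, which bridges TAP and the heavy chain. It was at 12.09, 12.10 and 12.09 in HDAC11-/- and at 12.08, 12.06 and 12.04 in WT, and was the 1 member with all HDAC11-/- arrays above WT. Its log2 fold change of 0.03 (-0.07 to 0.13, adjusted p = 0.550) did not pass the test, nor did that of its second probe set, 1450378_at (0.11, adjusted p = 0.244).

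**Figure D2:**
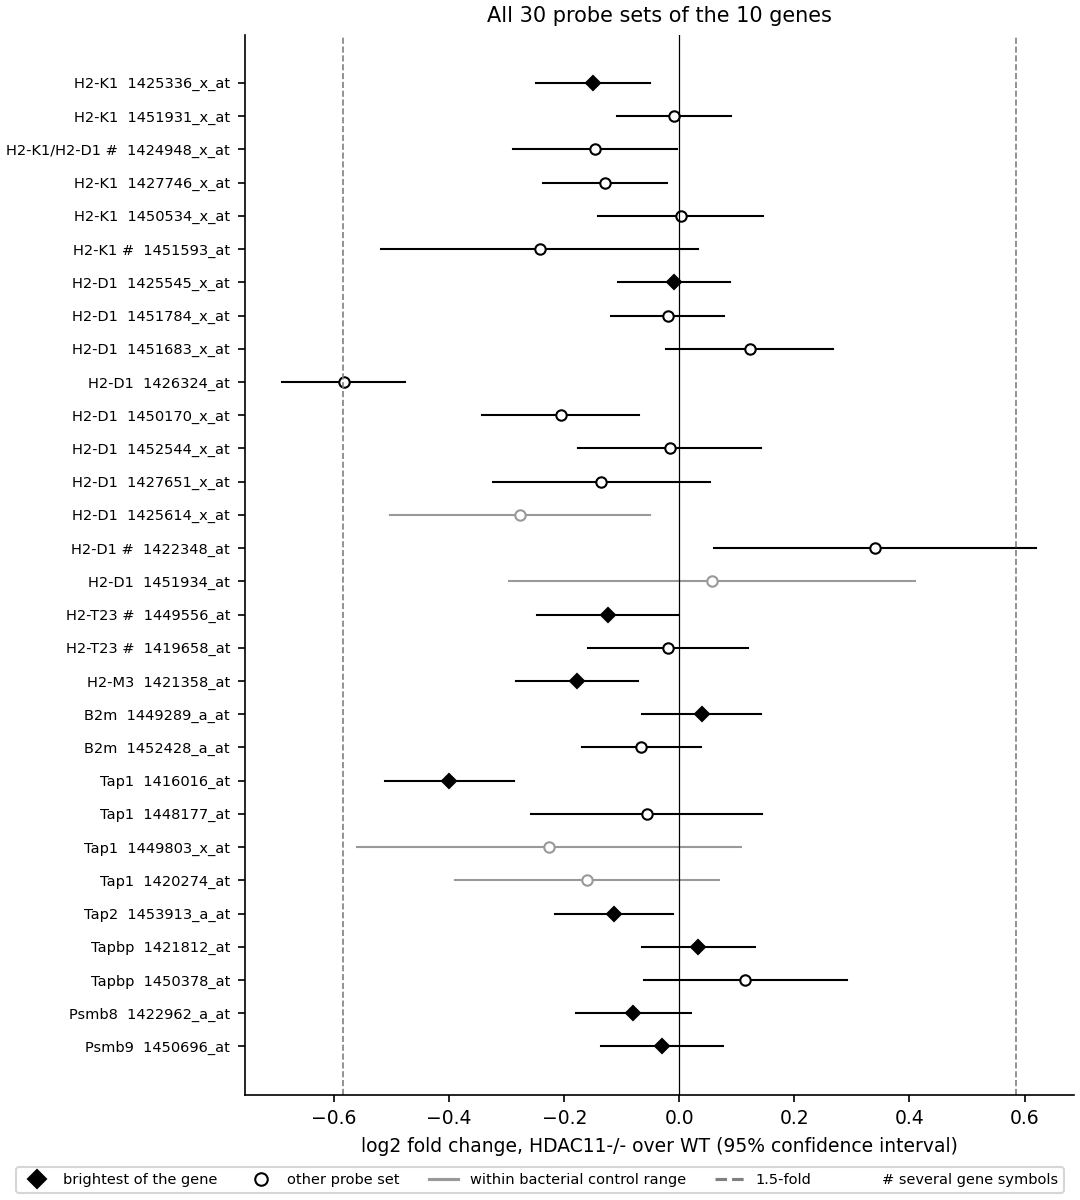
Log2 fold change (HDAC11-/- over WT, horizontal axis) of all 30 member probe sets with 95% confidence intervals; filled diamonds are the brightest probe set of a gene, grey lines those within the bacterial control range in both genotypes, # several symbols, and dashed lines 1.5-fold. The H2-D1 probe set 1426324_at at -0.58 and the brightest Tap1 probe set at -0.40 stand to the left of the rest.

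Over the 30 probe sets, 0 were called higher and 0 lower, beside 3.87% and 5.03% of all probe sets. By the adjusted p alone, 0 were higher and 5 were lower (1426324_at and 1450170_x_at of H2-D1 and the brightest of Tap1, H2-K1 and H2-M3), beside 23.2% and 22.4% of all probe sets. At an unadjusted p under 0.05 limma gave 1 higher and 10 lower, counts for which no share of all probe sets is given. Of the 30, 26 lay above the bacterial control range in at least 1 genotype.

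The immunoproteasome members did not differ past the test, while the constitutive subunits that they replace were higher in HDAC11-/- Tregs. Psmb8, the inducible counterpart of Psmb5, was at 12.24, 12.20 and 12.21 in HDAC11-/- and at 12.29, 12.29 and 12.31 in WT (log2 fold change -0.08, -0.18 to 0.02, adjusted p = 0.163). Its groups did not overlap. Psmb9, the inducible counterpart of Psmb6, was at 11.61, 11.60 and 11.60 in HDAC11-/- and at 11.68, 11.61 and 11.62 in WT, where replicate 1 was the highest. These groups overlapped (log2 fold change -0.03, -0.14 to 0.08, adjusted p = 0.607). Psmb10, the inducible subunit that replaces Psmb7 and is no member here, was at 11.14, 11.12 and 11.09 in HDAC11-/- and at 10.93, 11.06 and 11.02 in WT (log2 fold change 0.11, adjusted p = 0.109).

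Of the constitutive subunits, Psmb5 was at 10.58, 10.53 and 10.55 in HDAC11-/- and at 10.18, 10.30 and 10.25 in WT (log2 fold change 0.31, adjusted p = 0.00292). Psmb6 was at 10.76, 10.62 and 10.65 in HDAC11-/- and at 10.36, 10.33 and 10.35 in WT (log2 fold change 0.33, adjusted p = 0.00274). Psmb7 was at 10.89, 10.90 and 10.92 in HDAC11-/- and at 10.38, 10.26 and 10.20 in WT, a 1.54-fold difference that was called (log2 fold change 0.62, adjusted p = 0.000333). Psmb5, Psmb6 and Psmb7 were each above WT on every HDAC11-/- array. The Psmb7 call fell short of 1.5-fold at 0.49 after scaling on reference genes and at 0.5846 without WT replicate 3.

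To set each inducible subunit against the one it replaces, the log2 values were subtracted within each array, which removes any scaling of an array. The difference of differences shows unequal change and not the ratio of the subunits in the cell. Psmb8 minus Psmb5 was 1.66 ± 0.006 in HDAC11-/- and 2.05 ± 0.06 in WT (SD, n = 3 each), a shift of -0.39. Psmb9 minus Psmb6 was 0.92 ± 0.07 in HDAC11-/- and 1.29 ± 0.03 in WT, a shift of -0.36. Psmb10 minus Psmb7 was 0.21 ± 0.04 in HDAC11-/- and 0.72 ± 0.15 in WT, a shift of -0.51. In each of the 3 pairs all HDAC11-/- arrays lay below all WT arrays. No share of other gene pairs with such a separation is given, so nothing further is read from it. The exact two-sided permutation p was 0.1 for each pair and 0.1 after Benjamini-Hochberg over the 3 pairs, which is the smallest that 3 against 3 arrays can give.

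**Figure D3:**
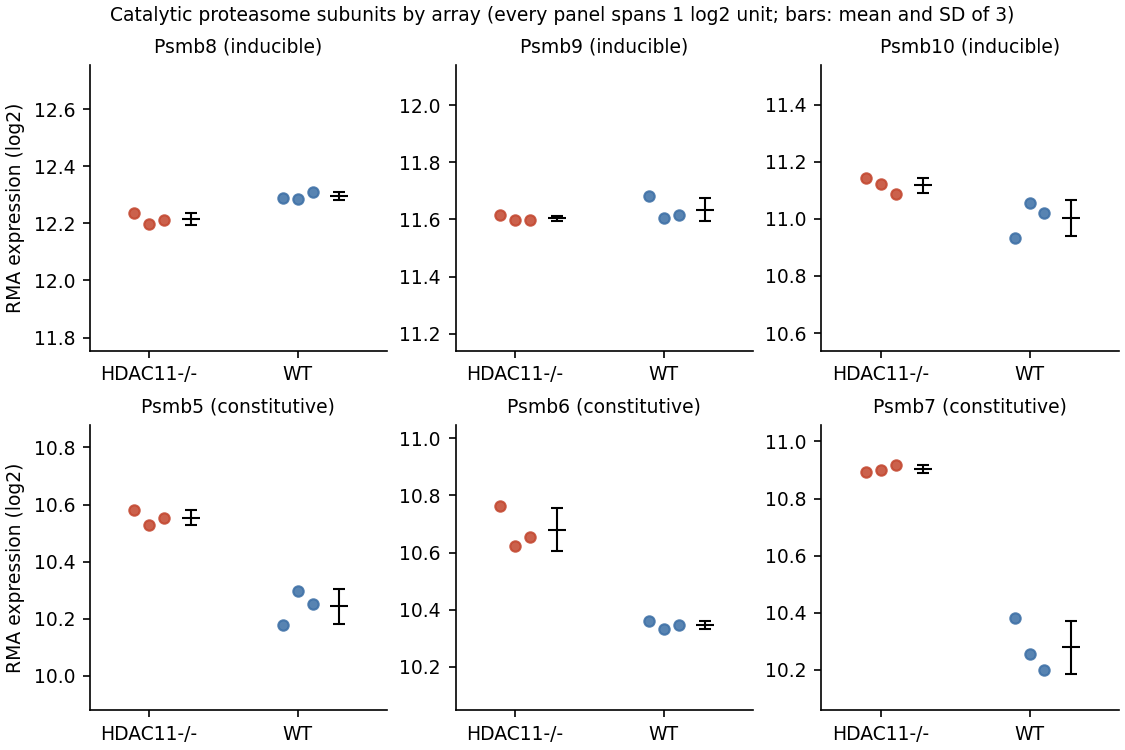
Log2 RMA expression of the inducible subunits Psmb8, Psmb9 and Psmb10 (upper row) above the constitutive subunits they replace (lower row), for 3 HDAC11-/- (left) and 3 WT (right) arrays with mean and SD; every panel spans 1 log2 unit. Psmb5, Psmb6 and Psmb7 lie higher on all HDAC11-/- arrays, by 0.31, 0.33 and 0.62, and Psmb8 and Psmb9 differ by under 0.1.

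Further genes of the pathway were taken from lists of known function. By the adjusted p, 22.9% of all genes were higher and 23.2% lower, and 3.46% were called higher and 3.72% lower. The counts of each list here and below stand beside these shares, and no list was tested against them. Of 20 measured genes of peptide loading, quality control and trimming, 13 were higher and 2 lower by the adjusted p, of which 1 was called higher and 1 lower, with a median log2 fold change of 0.20. After scaling on the reference genes the counts were 8 higher and 3 lower and the median 0.06. Over all 12393 genes that scaling gave 1659 higher and 5326 lower by the adjusted p, against 2837 and 2869 as deposited. The median of all genes was then -0.17. Hspa5, the chaperone BiP of the endoplasmic reticulum, was called higher at 0.59 (adjusted p = 0.000136). That call fell short of 1.5-fold after scaling on the reference genes (0.46), without WT replicate 2 (0.576) and without HDAC11-/- replicate 1 (0.579). Uggt1, which checks the folding of glycoproteins, was called lower at -0.60 (adjusted p = 0.000808). It fell short of 1.5-fold after scaling on the bacterial controls (-0.57), without WT replicate 1 (-0.54) and without HDAC11-/- replicate 3 (-0.57). Among genes of this list named after their values were seen, the lectin chaperone Canx (calnexin) had a log2 fold change of 0.47, Pdia3 (ERp57) 0.25 and Calr (calreticulin) 0.15, and Erap1, which trims peptides in the endoplasmic reticulum, had 0.36, all past the adjusted p. Tapbpl, a relative of tapasin, had 0.04 and did not pass it (adjusted p = 0.619). After scaling on the reference genes, Calr and Pdia3 were no longer past the adjusted p (0.787 and 0.0831). Without single arrays Calr missed it in 5 of 6 cases (adjusted p 0.0601 to 0.0925), the exception being WT replicate 3.

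Of 8 further proteasome subunits, activators and assembly factors, 5 were higher and 0 lower by the adjusted p, with a median of 0.30 (0.17 after scaling on the reference genes). 2 were called higher, Psmb7 and Psme3, a subunit of the PA28-gamma activator, at 0.65 (adjusted p = 0.000152, and 0.52 after scaling on the reference genes, short of 1.5-fold). Psme1, of the interferon-inducible PA28 activator, had 0.08 (adjusted p = 0.180).

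Of 13 measured class I and class Ib heavy chain genes outside the members, of 27 listed, 5 were lower and 1 higher by the adjusted p, 0 were called, and the median was -0.23. 4 of them lay within the bacterial control range in both genotypes. The genes with the smallest adjusted p were Cd1d1, which encodes a CD1d molecule that presents lipids to NKT cells, and Cd1d2. Cd1d1 was at 9.96, 9.97 and 9.98 in HDAC11-/- and at 10.26, 10.26 and 10.23 in WT (log2 fold change -0.29, adjusted p = 0.00194). Cd1d2 was close to the bacterial control range, at 5.14, 5.12 and 5.20 in HDAC11-/- and at 5.73, 5.62 and 5.39 in WT. Its log2 fold change was -0.43 (adjusted p = 0.00852). The 1 higher gene was Fcgrt, the Fc receptor that carries IgG, whose WT arrays lay within the bacterial control range (adjusted p = 0.0185). It missed the threshold after scaling on the reference genes and without WT replicate 2 (adjusted p 0.0566 and 0.0565).

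Of 14 measured factors that bind or activate class I promoters, 2 were higher and 4 lower by the adjusted p, and the median of -0.05 was close to that of all genes. Irf1, a main interferon-induced activator of Tap1 and Psmb9, was at 11.48, 11.47 and 11.42 in HDAC11-/- and at 11.76, 11.69 and 11.72 in WT. It was lower on all HDAC11-/- arrays, by 0.27 on the log2 scale (log2 fold change -0.27, adjusted p = 0.00355). Creb1, a factor that binds CRE elements, was called higher at 0.61 (adjusted p = 0.000434), with 0.48 after scaling on the reference genes and 0.57 without WT replicate 3, both short of 1.5-fold. Nlrc5 was not analysed here.

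Of the 9 interferon receptors, kinases and inhibitors, 1 was higher and 3 were lower by the adjusted p and 0 were called. Tyk2, a kinase of the type I interferon receptor, had -0.45 (adjusted p = 0.000404), Socs1, an inhibitor of the JAK kinases, had -0.33 (adjusted p = 0.00291), and Ifngr1, a chain of the interferon-gamma receptor, had 0.40 (adjusted p = 0.00253). Of 32 other interferon-stimulated genes, 8 were higher and 14 lower by the adjusted p, with a median of -0.09. Among all genes, 22.9% were higher and 23.2% lower by that measure. Cxcl10, a chemokine, was called higher at 0.93 (adjusted p = 7.96e-05). Called lower were Iigp1, a GTPase that acts against intracellular pathogens, at -1.48 (adjusted p = 0.000161) and the antiviral Mx1 at -0.65 (adjusted p = 0.000985), the call of Mx1 being short of 1.5-fold without WT replicate 3 (-0.56).

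**Figure D4:**
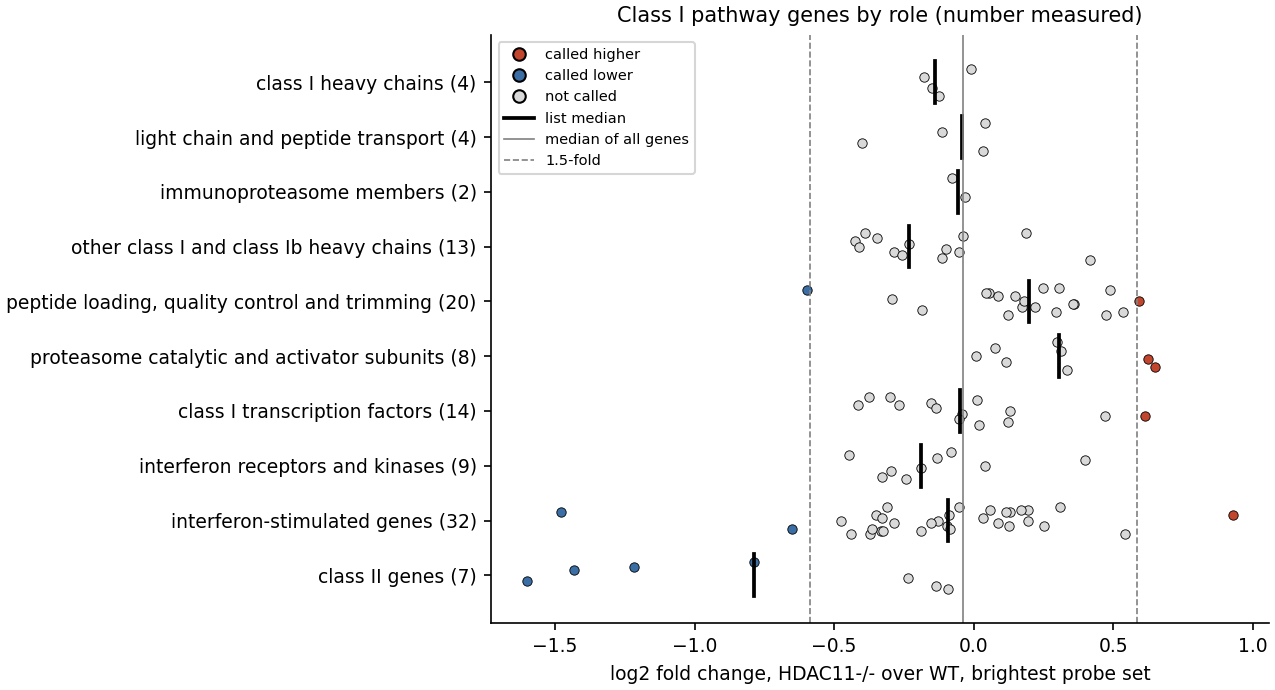
Log2 fold change (HDAC11-/- over WT, horizontal axis) of each measured gene by its brightest probe set, with genes grouped by role; short black lines are list medians, the grey line the median of all genes and dashed lines 1.5-fold. The 3 member groups at the top lie between -0.40 and 0.04, loading and proteasome genes have medians of 0.20 and 0.30, and class II genes a median of -0.79.

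Some transcripts of other cell types differed with genotype in these magnetically separated samples, and their part in the class I values was not tested. Among all genes, 3.46% were called higher and 3.72% lower, shares to set beside the counts of each list. Of 7 measured class II genes, which professional antigen-presenting cells express, 4 were called lower in HDAC11-/- (H2-Aa at -1.60, H2-Ab1 at -1.43, H2-Eb1 at -1.22 and Cd74 at -0.79). Their linear levels, summed over the list, were 3497 to 3613 in HDAC11-/- and 6715 to 6906 in WT. Of 13 B cell markers 7 were called lower, Blk, Ms4a1, Spib and Cd22 among them, and 0 higher (Pax5, Ebf1, Fcer2a and Fcrla were within the bacterial control range in both genotypes), with sums of 10427 to 10520 in HDAC11-/- and 12039 to 12540 in WT. Of 13 dendritic cell markers 1 (Batf3) was called lower and 0 higher, with 4 in the range (Xcr1, Cd209a, Ccl17 and Clec10a) and sums of 4806 to 5282 in HDAC11-/- and 4439 to 4658 in WT. Of 18 monocyte and macrophage markers 6 were called higher (3 after scaling on the reference genes), Lyz1 and Vcam1 among them, and 0 lower. In the range in both genotypes were 7 (Cd14, Adgre1, Fcgr1, C1qb, Itgam, Cd163 and Mrc1). C1qb and Mrc1 were among the 6 called, so their calls lie at the level of the bacterial controls and no fold is read from them. C1qa and C1qc, also called, were in the range in WT. In WT, Vcam1 was at 4.58, 4.80 and 5.41 and Lyz1 at 5.17, 5.28 and 5.40. The highest bacterial control on those arrays was 5.43, 5.48 and 5.27, so the WT side of these calls is at or near the control level. The sums for this list were 7651 to 7841 in HDAC11-/- and 7405 to 7622 in WT. Of 17 CD8 T and NK cell markers 4 were called lower (Fcer1g, Gzma, Ncr1 and Tyrobp) and 1 higher (Klrc1, short of 1.5-fold at 0.49 after scaling on the reference genes, at 0.53 without WT replicate 1 and at 0.575 without WT replicate 3), with 2 in the range and sums of 3012 to 3196 in HDAC11-/- and 3754 to 3933 in WT. Of 15 T cell and Treg markers 0 were called, with 1 higher (Ctla4) and 4 lower by the adjusted p, Cd4 among them, and sums of 53467 to 54478 in HDAC11-/- and 52499 to 53778 in WT. These sums add unlike probe sets, and a single gene can carry one. Ighm made up 90.7% of the B cell sum in HDAC11-/- and 83.5% in WT, Ctss 87.0% of the monocyte and macrophage sum in HDAC11-/- and 89.3% in WT, and Ccr7, which T cells also express, 62.1% of the dendritic cell sum in HDAC11-/- and 62.2% in WT, and none of these 3 passed the adjusted p (0.0811, 0.830 and 0.156). By the same measure the 4 class I heavy chain members summed to 50172 to 50545 in HDAC11-/- and 53714 to 53845 in WT, and TAP, tapasin and B2m to 24672 to 25447 in HDAC11-/- and 25139 to 25784 in WT.

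9 of the 10 members lie in the major histocompatibility region of chromosome 17, and B2m lies on chromosome 2. In the order of the RefSeq annotation, Psmb9, Tap1, Psmb8 and Tap2 are followed directly by the class II chain genes H2-Ab1, H2-Aa and H2-Eb1 among the measured genes. Along this stretch the log2 fold changes were -0.03, -0.40, -0.08 and -0.11 for the members and -1.43, -1.60 and -1.22 for the class II genes. Between Tapbp and H2-M3, 111 of 168 protein-coding genes were measured, 9 of them members. Of the other 102, 3 were called higher and 10 lower, with a median of -0.18, beside -0.11 for the 9 members and -0.04 for all genes, of which 3.46% were called higher and 3.72% lower. Psmb9 and Tap1 are read in opposite directions from the shared interval printed above, and of this pair Tap1 was past the adjusted p and Psmb9 was not. The difference between the 2 log2 fold changes was not tested.

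**Figure D5:**
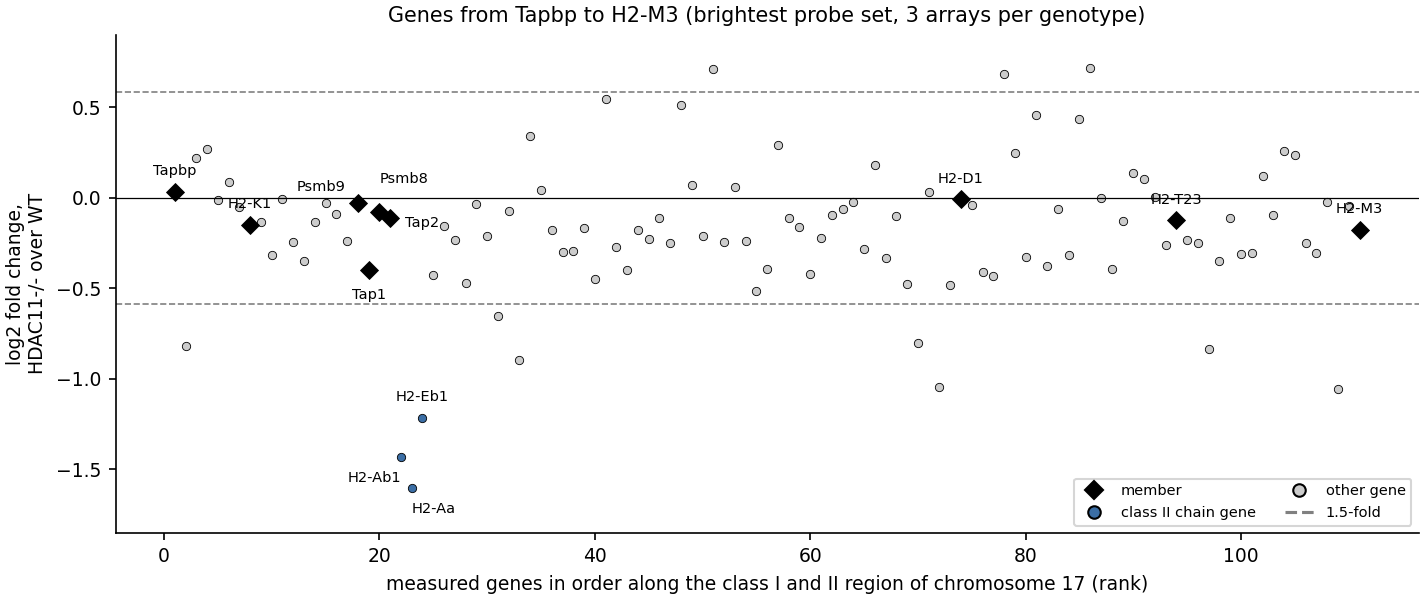
Log2 fold change (HDAC11-/- over WT, vertical axis) of the 111 measured genes between Tapbp and H2-M3 by rank along the chromosome; black diamonds are the 9 members in the region, blue points class II chain genes, grey points other genes and dashed lines 1.5-fold. The members lie between -0.40 and 0.03, and Psmb9, Tap1, Psmb8 and Tap2 stand next to class II genes at -1.22 to -1.60.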

How the data were processed

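RNA of CD4+CD25+ Tregs from 3 HDAC11-/- and 3 WT samples was hybridised to Affymetrix Mouse430a arrays by the authors, who normalized them by RMA in MAYDAY and deposited log2 values. The probe background and summary were taken as deposited, with probe definitions that those sources do not specify. Without probe-level values, detection calls are not given, so levels were set against bacterial control probe sets. After 45 controls were left out, 22626 probe sets entered limma 3.58.1 (lmFit and eBayes, R 4.3.3) with a term for genotype alone and Benjamini-Hochberg adjustment, and a gene took its brightest probe set. SAM was run as an alternative. The number of arrays limits the precision. The members and lists were chosen with earlier results of these data known. Named are all members, in other lists called genes (up to 4 per direction, or without calls up to 2 with the smallest adjusted p), the constitutive subunits and Irf1; exceptions are stated. Figures were drawn with matplotlib 3.10.9.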

Additional observations from a re-analysis of the deposited data

How the results depend on the processing

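The counts of members called higher were 0 under every alternative run. The number of member genes lower by the adjusted p was 3 as reported and 1 with SAM (Tap1). It was 6 with an intensity trend and a robust prior, 8 after scaling on the reference genes, and 1 to 3 without each array in turn. Without each array in turn, 36.4% to 42.4% of all genes passed it in either direction. No share of all genes is given for SAM, for the trend with robust prior, for the 1.2-fold threshold or for the replicate block. Nothing is read from the counts of those runs. With a 1.2-fold threshold 1 member gene (Tap1) and 2 member probe sets were called lower, and after scaling on the reference genes 1 probe set (1426324_at of H2-D1, at -0.72) was. Without each array in turn 0 to 1 member probe sets were called lower. Scaling on the reference genes moved all log2 fold changes by -0.13 and turned B2m to -0.10 and Tapbp to -0.10. Over the array it gave 276 genes called higher and 851 lower, against 429 and 461 as deposited. By the adjusted p alone it gave 1659 genes higher and 5326 lower of 12393, against 2837 and 2869 as deposited. Of its 12 reference genes 5 were higher and 0 lower by the adjusted p before scaling. After this scaling, 8 of 13 other heavy chains and 8 of 14 transcription factors were lower by the adjusted p. So were 6 of 9 interferon receptors and kinases and 19 of 32 interferon-stimulated genes, with 3 of the last list higher. These counts stand beside the 5326 of 12393 genes lower under the same scaling, and no list was tested against them. Scaling on the bacterial controls moved them by 0.02 and turned H2-D1 to 0.015, with H2-K1 no longer past the adjusted p (0.0745). The mean of the probe sets that carry a gene's symbol alone gave Tap1 -0.21 (adjusted p = 0.0403), H2-K1 -0.07 (0.176), H2-D1 -0.12 (0.0561) and B2m -0.014. These means include 1449803_x_at and 1420274_at of Tap1 and 1425614_x_at and 1451934_at of H2-D1, which lay within the bacterial control range in both genotypes. With probe sets without a suffix alone, H2-D1 was at -0.58 (0.000161) and H2-K1 at -0.24 (0.129). Scaling does not touch the subunit differences, which were -0.42 to -0.36 for Psmb8 minus Psmb5, -0.39 to -0.33 for Psmb9 minus Psmb6 and -0.60 to -0.46 for Psmb10 minus Psmb7 without each array in turn. Deviations from the group means correlated between arrays of the same replicate number at 0.23 and 0.16 for numbers 1 and 3 and at -0.02 for number 2. The highest correlation with another number was -0.04 for number 1, 0.06 for number 2 and 0.06 for number 3. These values are mixed. The numbers were not taken as pairs in the main fit and entered an alternative as a replicate block. With the replicate block H2-K1 missed the adjusted p (0.0594), 2 member genes were lower by it and 0 were called. B2m, Tap2 and Psmb8 have no probe set without a suffix, so that alternative gave no value for them. No fold of a single probe set is read within the bacterial control range, and whether the brightest probe sets were saturated was not tested.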
